A study of Mus musculus with 12 samples.

Results

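The genes described here are those of the type 2 cytokines interleukin (IL)-3, IL-4, IL-5, IL-9 and IL-13 and of GM-CSF (Csf2), together with Il24. They were taken by name, as every probe set annotated with 1 of these 7 symbols and no other, which gave 7 probe sets, 1 for each gene, among 45037 tested probe sets that represent 18193 genes. Total RNA of spleen T cells from female C57BL/6 mice, aged 8 to 12 weeks by the labels, was hybridized to Affymetrix mouse genome arrays, 1 array per sample. There were 5 NKT-like samples (cultured CD8+ cells), 3 of cultured CD4+ cells, 2 of activated CD8+ cells and 2 of naive CD8+ cells, and the labels name no mutant or transgene. The NKT-like cells were grown from splenic CD8+ cells with beads carrying anti-CD3 and anti-CD28 and with high-dose IL-2, a protocol that yields CD8+ T cells with natural killer surface markers and suppressive activity. The cultured CD4+ cells went through that same protocol, the activated CD8+ cells received a low dose of the soluble antibodies, and the naive CD8+ cells were freshly isolated. The starting CD8+ cells were enriched by negative selection, the CD4+ cells were sorted, and a naive CD4+ sample was not analysed here. For cultured CD4+ against naive CD8+ cells lineage and culture therefore cannot be told apart. The same holds for lineage and protocol in cultured CD4+ against activated CD8+ cells. Cd4 stood at 9.82 to 10.10 log2 on the 3 cultured CD4+ arrays and at 6.55 to 7.20 on the other 9, and Cd8a averaged 10.91 ± 0.65 in NKT-like, 6.73 ± 0.27 in cultured CD4+, 10.30 ± 0.37 in activated and 11.39 ± 0.46 in naive cells (SD, n = 5, 3, 2 and 2). These levels of Cd4 and Cd8a do not go against the labels. Zbtb7b, the other CD4 marker examined, did not set the cultured CD4+ cells apart. It averaged 8.61 ± 0.29 in NKT-like, 8.44 ± 0.09 in cultured CD4+, 7.82 ± 0.35 in activated and 8.18 ± 0.21 in naive cells. The mean of 7 red cell precursor genes was 6.31 to 6.73 log2 in the 10 cultured and activated samples, against 8.49 and 8.82 in the naive samples, and that of 9 B cell genes 5.80 to 6.30, against 6.76 and 7.04 in the naive samples. Their part in the comparisons with naive cells was not tested.

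Type 2 cytokines are secreted by helper T cells of the Th2 type, by mast cells and basophils and by innate lymphocytes, and they direct antibody class switching to IgE, the output and survival of eosinophils and the response of mucosal epithelia to parasites and allergens. In T cells the genes are silent until the antigen receptor signals through NFAT and AP-1, and in Th2 cells GATA3, MAF and STAT6 open the locus and keep it accessible, while T-bet and Eomes, the T-box factors of Th1 and cytotoxic cells, oppose it. IL-24 belongs to the IL-10 family and its gene lies beside Il20, Il19 and Il10. In the mouse gene order of the RefSeq annotation (GRCm38.p6) Il4 and Il13 are neighbours on chromosome 11, Rad50 separates Il13 from Il5, 6 protein-coding genes lie between Il5 and Csf2, and Il3 follows Csf2. Il9 is on chromosome 13 and Il24 on chromosome 1.

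The 4 genes of chromosome 11 below passed the test as higher in cultured CD4+ against naive CD8+ cells, and their promoters are shown. Each sequence is the 250 bases upstream of the start site in RefSeq (GRCm38.p6), read 5′ to 3′ on the gene's own strand. Capitals mark GGAAA, the core of NFAT sites, and GATAA, a core bound by GATA factors, each on either strand. Il4 lies at chr11:53618666-53618915 (minus strand), Il13 at chr11:53634703-53634952 (minus), Il5 at chr11:53720544-53720793 (plus) and Csf2 at chr11:54249900-54250149 (minus).
Il4: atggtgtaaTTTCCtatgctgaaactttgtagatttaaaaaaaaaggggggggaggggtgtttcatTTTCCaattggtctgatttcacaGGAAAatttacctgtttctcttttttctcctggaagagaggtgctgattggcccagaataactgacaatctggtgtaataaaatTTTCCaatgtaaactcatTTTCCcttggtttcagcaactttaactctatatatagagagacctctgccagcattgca
Il13: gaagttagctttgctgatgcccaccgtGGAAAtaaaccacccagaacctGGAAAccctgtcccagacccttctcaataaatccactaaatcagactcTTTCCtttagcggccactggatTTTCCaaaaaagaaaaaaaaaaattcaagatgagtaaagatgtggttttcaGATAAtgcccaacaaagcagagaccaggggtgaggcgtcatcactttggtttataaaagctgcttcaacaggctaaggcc
Il5: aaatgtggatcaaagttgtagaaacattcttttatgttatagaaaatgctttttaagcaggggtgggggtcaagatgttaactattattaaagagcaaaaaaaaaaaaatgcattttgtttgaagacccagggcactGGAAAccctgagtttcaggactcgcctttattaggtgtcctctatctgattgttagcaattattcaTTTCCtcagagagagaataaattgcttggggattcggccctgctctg
Csf2: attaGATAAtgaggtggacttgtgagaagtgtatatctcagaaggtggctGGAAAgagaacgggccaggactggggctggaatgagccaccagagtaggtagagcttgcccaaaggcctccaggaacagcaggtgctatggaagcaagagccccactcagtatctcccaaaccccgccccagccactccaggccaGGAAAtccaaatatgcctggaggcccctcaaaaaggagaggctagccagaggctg
The Il4 window held 5 matches to GGAAA, the Il13 window 4, and the Il5 and Csf2 windows 2 each. Of 32851 mouse promoter windows of this length, 55.6% held at least 1 match, 21.4% at least 2, 1.59% at least 4 and 0.39% at least 5. GATAA occurred 1 time in the Il13 and 1 time in the Csf2 window and had no match in these letters in the Il4 and Il5 windows, and 22.6% of all windows held it. The Il4 window also held 3 matches to TGCTGA, part of a MAF recognition element (16.1% of windows hold 1 or more and 0.146% hold 3 or more). It held 2 to TCATTT (14.9% hold 1 or more and 2.05% hold 2 or more) and 1 to TTCNNNNGAA, the spacing bound by STAT6 (5.85%). TGCTGA also occurred 1 time in the Il13 window and TCATTT 1 time in the Il5 window. In the Il4 window the TTCNNNNGAA match overlaps the GGAAA written on the plus strand, and both TCATTT matches overlap a GGAAA on the minus strand. TGAGTCA, an AP-1 site held by 4.46% of windows, and TTCNNNGAA, the STAT5 spacing held by 7.02%, had no match in the 4 windows. All motifs were sought on both strands. Of the 7 genes, 6 had a promoter in the table used here. Il4 had a further start site, whose window (chr11:53617339-53617588) is not shown. That other Il4 window held no match to any of the motifs sought, so the Il4 counts above hold for 1 of its 2 windows.

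Il4, which drives Th2 differentiation and IgE switching, was high in the cultured CD4+ cells and near the low end of the scale elsewhere. Its log2 signal was 5.35, 5.35, 6.09, 5.80 and 5.47 in NKT-like replicates 1 to 5, 10.93, 11.95 and 12.11 in cultured CD4+ replicates 1 to 3, 5.83 and 5.78 in the activated samples and 5.84 and 5.78 in the naive samples. All 3 cultured CD4+ arrays lay above every other array, and the NKT-like, activated and naive ranges overlapped. The cultured CD4+ level was 57.7-fold above naive (log2 difference 5.85 ± 0.32 SE, q = 4.9e-07) and 57.8-fold above activated cells (5.85 ± 0.32, q = 2.5e-06). NKT-like against cultured CD4+ cells gave a log2 difference of -6.05 ± 0.25 (q = 2.6e-07). Here q is the Storey q-value of limma's moderated test over all 45037 probe sets, and a difference passed at 0.01 or less. On the arrays of cultured CD4+ cells the probe set stood above 96.9% to 98.9% of all probe sets, and on the other 9 above 29.1% to 45.9%. In bulk RNA a change in the share of cells that express a gene and a change in RNA per cell cannot be told apart. The NKT-like and CD4+ cultures are described as independent, which is not said of the naive and activated samples, for which p-values measure only the spread between samples.

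Il13, the effector cytokine of airway mucus and parasite expulsion, followed the same pattern. It measured 5.74, 5.82, 6.47, 7.12 and 7.13 in NKT-like replicates 1 to 5, 10.05, 11.92 and 12.04 in cultured CD4+ replicates 1 to 3, 5.93 and 5.95 in activated and 6.21 and 6.19 in naive cells. The 3 cultured CD4+ arrays were again the highest, with replicate 1 below the other 2. NKT-like replicates 3 to 5 lay above both naive samples and replicates 1 and 2 below them. Cultured CD4+ cells stood 35.2-fold above naive (5.14 ± 0.57, q = 7.6e-05) and 42.0-fold above activated cells (5.39 ± 0.57, q = 0.00041), and NKT-like against cultured CD4+ cells gave -4.88 ± 0.46 (q = 0.00011). The NKT-like cells differed from activated cells by 0.51 ± 0.53 log2 (q = 0.40), with a 95% interval of -0.65 to 1.67.

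Il5, the growth and survival factor of eosinophils, separated the cultured CD4+ arrays from one another. It measured 5.83, 5.77, 5.97, 6.32 and 6.13 in NKT-like cells, 6.66 in cultured CD4+ replicate 1 and 9.69 and 9.76 in replicates 2 and 3, 5.55 and 6.21 in activated and 6.07 and 5.95 in naive cells. Cultured CD4+ replicate 1 was above all arrays of the other groups, by 0.34 log2 over the nearest. The difference of cultured CD4+ from naive cells was 2.69 ± 0.72 (6.47-fold, q = 0.0088), the weakest of the 5 that passed. It did not pass without any 1 of the NKT-like samples (q = 0.012 to 0.013), without cultured CD4+ replicate 2 or 3 (q = 0.041 and 0.037) or without naive replicate 1 or 2 (q = 0.041 and 0.076). Of 23 alternatives tried, 14 lost the call, including settings that left no sample out. Without cultured CD4+ replicate 1 the difference was 3.72 (q = 2.6e-06). Every fit without that sample, here and below, rests on cultured CD4+ replicates 2 and 3, the most alike pair of arrays. NKT-like against cultured CD4+ cells gave -2.70 ± 0.57 (q = 0.019), and cultured CD4+ against activated cells 2.82 ± 0.72 (q = 0.044), neither past the threshold. Without cultured CD4+ replicate 1 these were -3.72 (q = 2.3e-06) and 3.84 (q = 1e-05).

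Csf2, which encodes the growth factor GM-CSF of granulocytes and macrophages, was measured above naive cells in all 3 other groups. It stood at 7.55, 7.75, 7.48, 7.63 and 7.68 in NKT-like replicates 1 to 5, at 8.93, 11.41 and 11.58 in cultured CD4+ replicates 1 to 3, at 9.21 and 8.49 in activated and at 6.72 and 6.82 in naive cells. The order of the group means was cultured CD4+, activated, NKT-like and naive, and cultured CD4+ replicate 1 fell within the activated range. Cultured CD4+ cells were 14.6-fold above naive cells (3.87 ± 0.60, q = 0.00056), and NKT-like against cultured CD4+ cells gave -3.02 ± 0.48 (q = 0.0038). That NKT-like comparison missed the threshold without NKT-like replicate 1 (q = 0.0103) or 5 (q = 0.0101) and without cultured CD4+ replicate 2 (q = 0.027) or 3 (q = 0.025). The other 4 comparisons, which include each step between neighbours in that order, did not pass. Cultured CD4+ against activated cells gave 1.79 ± 0.60 (q = 0.12) and NKT-like against activated cells -1.23 ± 0.55 (q = 0.15). NKT-like against naive cells gave 0.85 ± 0.55 (q = 0.12) and activated against naive cells 2.08 ± 0.66 (q = 0.044). All 4 passed once cultured CD4+ replicate 1 was left out, with q = 5.4e-05, 0.0014, 0.0023 and 0.00017 in the same order. That sample enters the last 3 of these comparisons only through the spread that the groups share.

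Il3, a growth factor of mast cells and basophils, was high on 2 of the 3 cultured CD4+ arrays and intermediate in the activated cells. It measured 5.29, 5.41, 5.58, 5.43 and 5.66 in NKT-like, 5.64, 10.53 and 10.58 in cultured CD4+, 8.44 and 7.15 in activated and 5.51 and 5.48 in naive cells, each in replicate order. Cultured CD4+ replicate 1 lay within the NKT-like range. None of the 6 comparisons of Il3 passed: cultured CD4+ against naive cells gave 3.42 ± 1.14 (q = 0.022), NKT-like against cultured CD4+ cells -3.44 ± 0.91 (q = 0.053), activated against naive cells 2.30 ± 1.25 (q = 0.19) and NKT-like against activated cells -2.32 ± 1.04 (q = 0.15). Both activated arrays nonetheless lay above all 5 NKT-like and both naive arrays. For cultured CD4+ against naive cells the ratio was 10.7 from log2 means and 22.7 from linear means. Without cultured CD4+ replicate 1 these 4 differences were 5.06 (q = 3.3e-06), -5.08 (q = 2.7e-06), 2.30 (q = 0.0011) and -2.32 (q = 0.00054). Cultured CD4+ against activated cells, 1.12 ± 1.14 with all arrays (q = 0.49), was then 2.76 (q = 0.00086). That fit rests on cultured CD4+ replicates 2 and 3, the most alike pair of arrays. In activated against naive and NKT-like against activated cells only the spread that the groups share changed.

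Il9, a mast cell and mucosal factor made by Th2 and Th9 cells, had the smallest range of the 7. It measured 7.20, 7.11, 7.13, 7.0 and 7.08 in NKT-like, 7.19, 8.18 and 8.17 in cultured CD4+, 7.0 and 7.36 in activated and 6.97 and 7.25 in naive cells. Only cultured CD4+ replicates 2 and 3 left the range of the other groups. The difference of cultured CD4+ from naive cells was 0.73 ± 0.26 (q = 0.026) and that of NKT-like from cultured CD4+ cells -0.74 ± 0.20 (q = 0.063). Cultured CD4+ against activated cells gave 0.67 ± 0.26 (q = 0.16). Without cultured CD4+ replicate 1 the 3 values were 1.06 (q = 0.00027), -1.07 (q = 0.00052) and 1.00 (q = 0.0029).

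Il24, whose product signals through receptors of the IL-20 type, was the only one of the 7 to reach 11 log2 or more on NKT-like arrays. It measured 8.17, 7.88, 11.86, 11.11 and 8.12 in NKT-like replicates 1 to 5, 11.09, 12.53 and 12.45 in cultured CD4+ replicates 1 to 3, 6.74 and 7.16 in activated and 7.05 and 6.90 in naive cells. NKT-like replicates 3 and 4 lay above cultured CD4+ replicate 1, and replicates 1, 2 and 5 lay between those and the naive and activated arrays, which none of the 5 overlapped. Cultured CD4+ cells were 33.0-fold above naive cells (5.05 ± 1.10, q = 0.0035), which did not pass without cultured CD4+ replicate 2 (q = 0.018) or 3 (q = 0.016) or naive replicate 1 (q = 0.022) or 2 (q = 0.040). NKT-like against naive cells gave 2.45 ± 1.00 (q = 0.041), with a ratio of 5.48 from log2 means and 10.7 from linear means. NKT-like against activated cells gave 2.48 ± 1.00 (q = 0.12), NKT-like against cultured CD4+ cells -2.59 ± 0.88 (q = 0.13), and cultured CD4+ against activated cells 5.07 ± 1.10 (q = 0.022). The last of these passed without NKT-like replicate 3 (q = 0.007). With all arrays its unadjusted p in limma's moderated test was 0.00073, close to the 0.00076 of cultured CD4+ against naive cells. The 2 calls differ because q is set within each comparison.

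**Figure D1:**
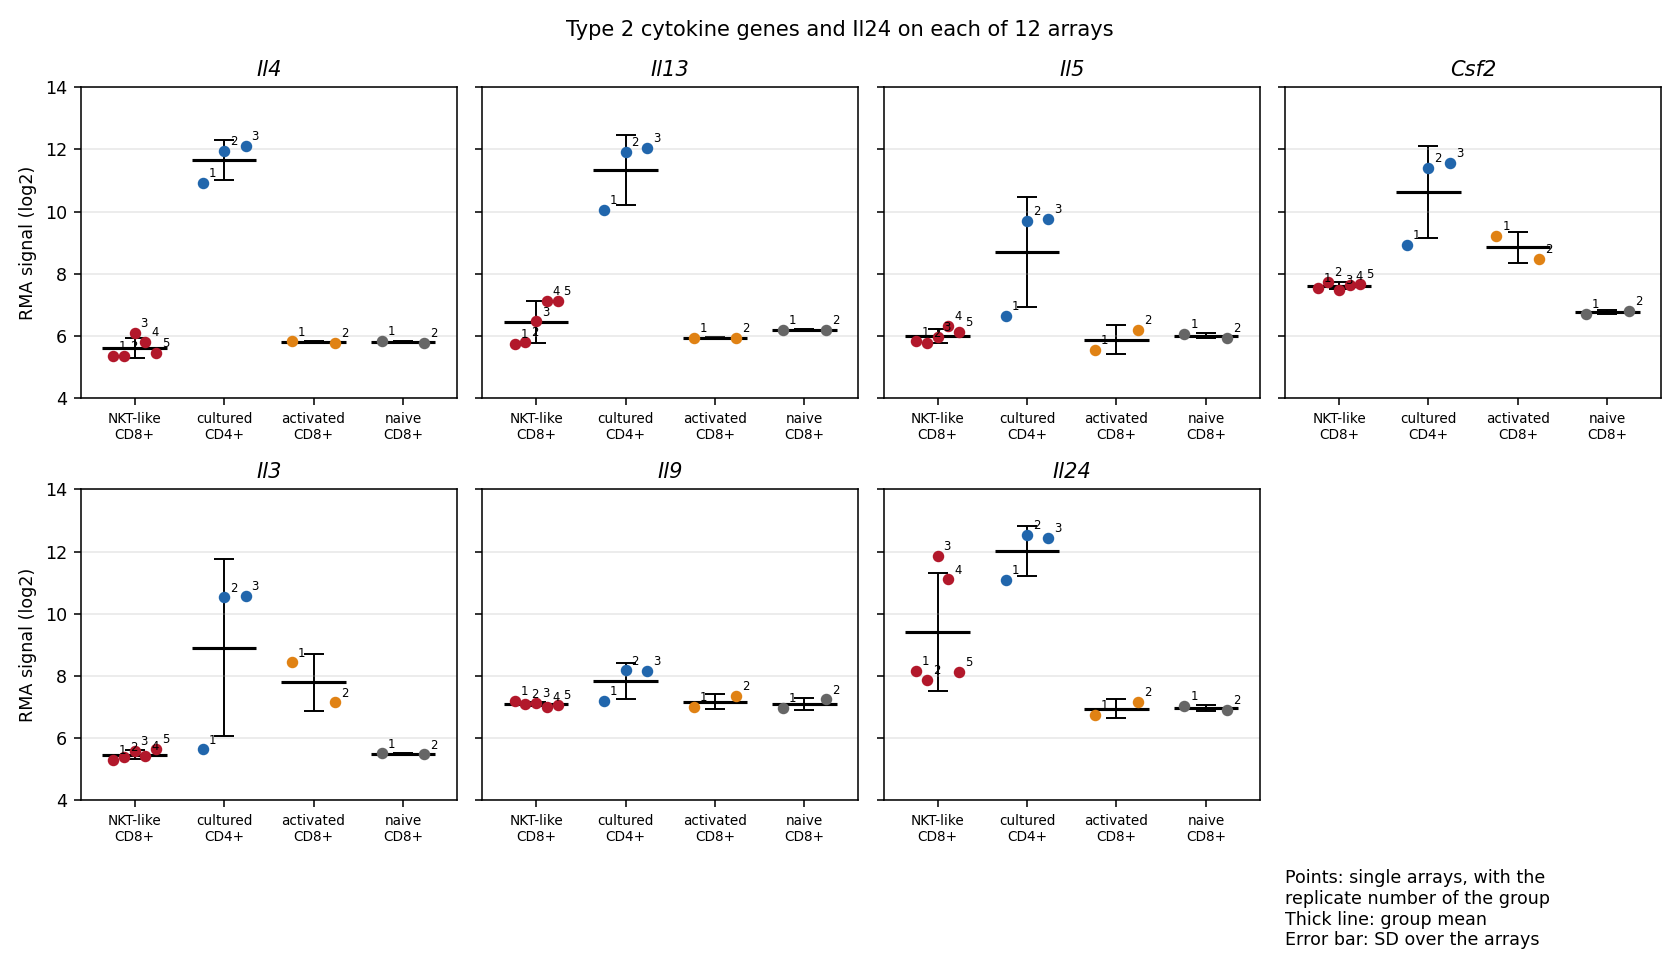
Log2 RMA signal (y axis) of the 7 genes on each array, by group (x axis); points are arrays with their replicate number, thick lines are group means and error bars SD. Il4, Il13 and Il24 were high on all 3 cultured CD4+ arrays, while Il3 was 5.64 on cultured CD4+ replicate 1 and 10.53 and 10.58 on replicates 2 and 3.

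Set against naive CD8+ cells, 5 of the 7 genes were higher in cultured CD4+ cells (Il4, Il13, Il24, Csf2 and Il5) and 0 lower, where 8.18% of all probe sets were called higher and 7.31% lower. The median difference of the 7 was 3.87 log2, against -0.10 over all probe sets. With cultured CD4+ replicate 2 or 3, or naive replicate 1 or 2, left out, the number was 3, namely Il4, Il13 and Csf2 each time; without cultured CD4+ replicate 1 it was 7. The cultured CD4+ and naive arrays did not overlap for 6 of the 7, all but Il9, and 19.6% of all probe sets had every cultured CD4+ array above both naive ones. In NKT-like against cultured CD4+ cells 3 of the 7 were lower (Il4, Il13 and Csf2) and 0 higher, with 7 lower and 0 higher at an unadjusted p below 0.05. The background there was 1.33% called lower and 0.850% higher, and the medians were -3.02 log2 for the 7 and 0.00 for all probe sets. Without cultured CD4+ replicate 1 the number was 6, all but Il24, and without replicate 2 or 3 it was 2. In cultured CD4+ against activated cells Il4 and Il13 were higher and 0 were lower, 6 and 0 at an unadjusted p below 0.05. The background there was 1.11% higher and 0.351% lower. The number that passed was 6 without cultured CD4+ replicate 1 and 3 without NKT-like replicate 3. A given p yields a different q in each comparison, so these counts do not rank the comparisons by size of difference.

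None of the 7 passed in the comparisons without cultured CD4+ cells. By limma 0 were called in NKT-like against naive cells, where 7.83% of probe sets were higher and 8.52% lower, 0 in activated against naive cells (3.10% and 2.60%) and 0 in NKT-like against activated cells (2.19% and 0.979%). Benjamini-Hochberg adjustment also gave 0 in each. At an unadjusted p below 0.05, Il24 was higher in NKT-like cells and Csf2 higher in activated cells, each set against naive cells. In NKT-like against activated cells Il24 was higher and Csf2 and Il3 lower at that level. With only the 2 groups in question fitted, Csf2 passed in NKT-like against naive cells and Csf2 and Il3 in NKT-like against activated cells. Without cultured CD4+ replicate 1 the numbers were 1, 2 and 2 in the same order (Csf2; Csf2 and Il3; Csf2 and Il3). The 3 comparisons with naive cells share the 2 naive samples, and all comparisons share 1 estimate of the spread.

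**Figure D2:**
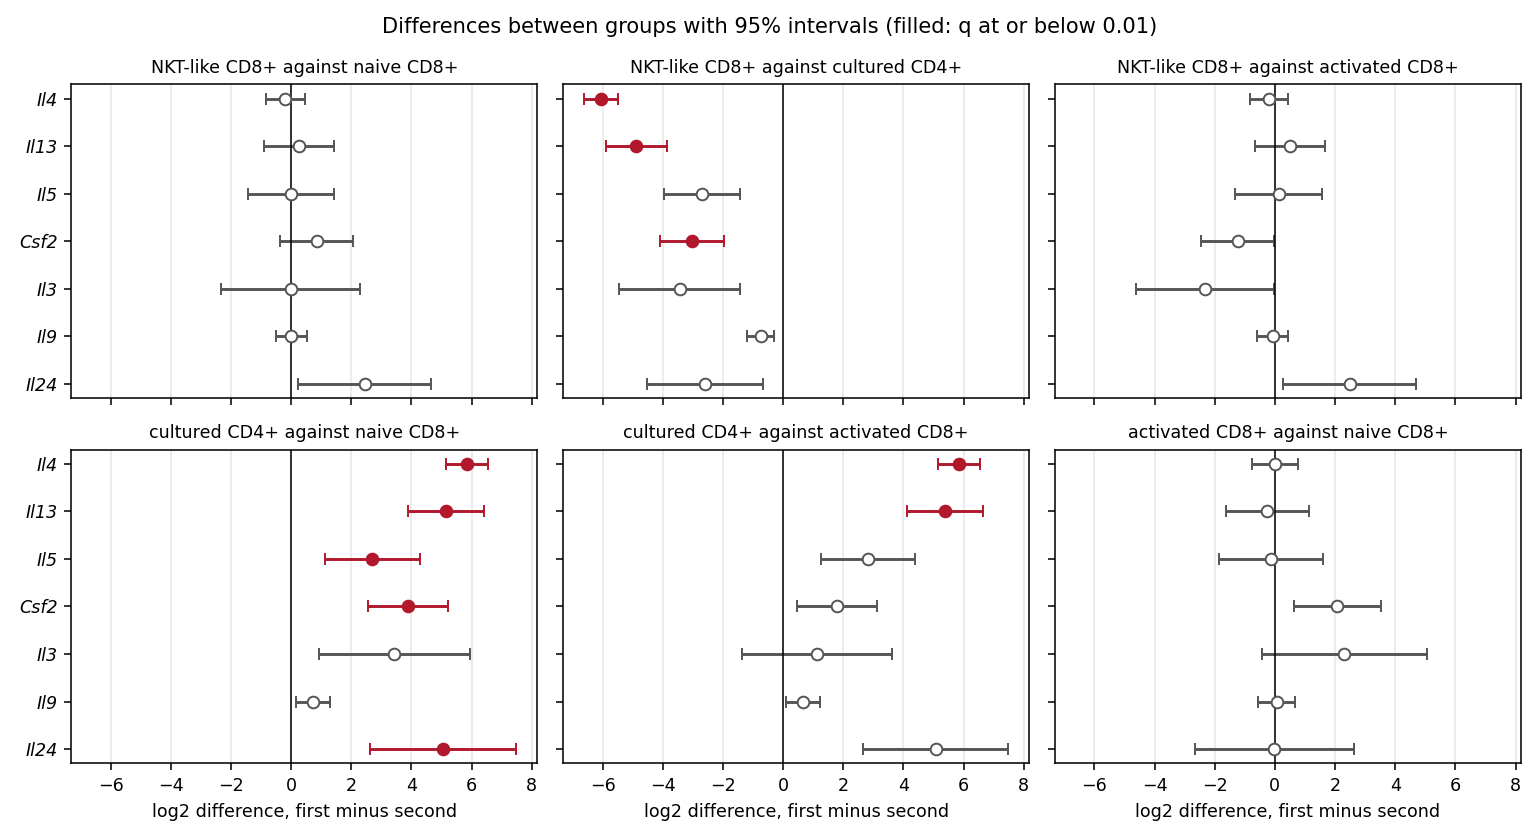
Log2 difference (x axis, the group named ahead minus the other) of each of the 7 genes in the 6 comparisons, with 95% intervals; filled points passed at q ≤ 0.01. Filled points stand in the 3 comparisons with cultured CD4+ cells, 5 against naive cells, 3 in NKT-like against cultured CD4+ cells and 2 against activated cells, and in none of the others. The q at a given p differs between comparisons.

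The cultured CD4+ arrays differed among themselves more for these cytokines than for most probe sets. Replicate 1 minus the mean of replicates 2 and 3 was -4.92 log2 for Il3, -3.07 for Il5, -2.57 for Csf2, -1.92 for Il13, -1.40 for Il24, -1.10 for Il4 and -0.99 for Il9. Over all probe sets the median of that difference was 0.07, and 1.53% of probe sets were more than 1 log2 lower on replicate 1 than on both others. Levels on replicate 1 ranged widely among the 7: Il4, Il13 and Il24 stayed 5.12, 3.85 and 4.11 log2 above the naive mean on replicate 1, Csf2 2.16, Il5 0.65, and Il3 and Il9 0.14 and 0.07. Replicates 2 and 3 differed by at most 0.17 log2 for any of the 7 and were the most alike pair of all 12 arrays (r = 0.995 and SD of the difference 0.20 over all probe sets, against 0.28 for the next pair). Averaged into 1 sample they gave 3 genes in cultured CD4+ against naive cells and 2 in NKT-like against cultured CD4+ cells. Il4 and Il13 passed in every comparison with cultured CD4+ cells under that setting as well. Ifng, the Th1 cytokine, measured 6.84, 11.65 and 11.52 on cultured CD4+ replicates 1 to 3, so replicate 1 was low for this gene too, while Il21 measured 10.88, 10.31 and 10.40 and Lif 11.21, 10.76 and 10.69.

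Genes next to the cytokine genes were examined because a locus can open as a whole. In cultured CD4+ against naive cells, where 8.18% of all probe sets were called higher and 7.31% lower, 7 of 23 measured neighbours rose and 1 fell. Their median was -0.02 log2 beside -0.10 over all probe sets. Without naive replicate 2, 4 were higher. The lower gene, Fcmr, an IgM receptor gene beside Il24 (-1.41, q = 0.0067), missed the threshold when either naive sample, any 1 cultured CD4+ sample or NKT-like replicate 1 or 4 was left out (q = 0.010 to 0.070). In NKT-like against naive cells 6 neighbours were higher and 2 lower, beside 7.83% and 8.52% of all probe sets. The higher ones there included Kif3a (1.01, q = 0.006) and Rad50 (0.51, q = 0.0078). In NKT-like against cultured CD4+ cells 3 neighbours were lower (Kif3a, Septin8 and Rad50) and 0 higher, beside 1.33% and 0.850% of all probe sets. At an unadjusted p below 0.05, 8 were lower and 2 higher in that comparison. Rad50 missed the threshold there when any 1 cultured CD4+ sample or NKT-like replicate 1, 2, 3 or 5 was left out (q = 0.013 to 0.043). Kif3a, a kinesin motor gene that adjoins Il4, measured 7.04, 7.25, 7.36, 7.45 and 7.31 in NKT-like, 11.25, 10.45 and 10.63 in cultured CD4+, 6.86 and 5.93 in activated and 6.31 and 6.24 in naive cells. The cultured CD4+ arrays did not overlap any other group, and the difference was 4.50 ± 0.27 from naive cells (22.7-fold, q = 9.9e-07), and NKT-like against cultured CD4+ cells gave -3.50 ± 0.22 (q = 4.7e-06). On cultured CD4+ replicate 1, where Il3 and Il5 were low, Kif3a had its highest value. Septin8, a cytoskeletal GTPase gene next to Kif3a, was 0.87 ± 0.15 above naive (q = 0.00083; 0.019 without naive replicate 2), and Rad50, the DNA repair gene between Il13 and Il5, 1.18 ± 0.15 (q = 0.00014). Irf1, on the far side of Il5, differed by 0.07 (q = 0.36), and from there to P4ha2, the last gene ahead of Csf2, no gene passed in that comparison.

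**Figure D3:**
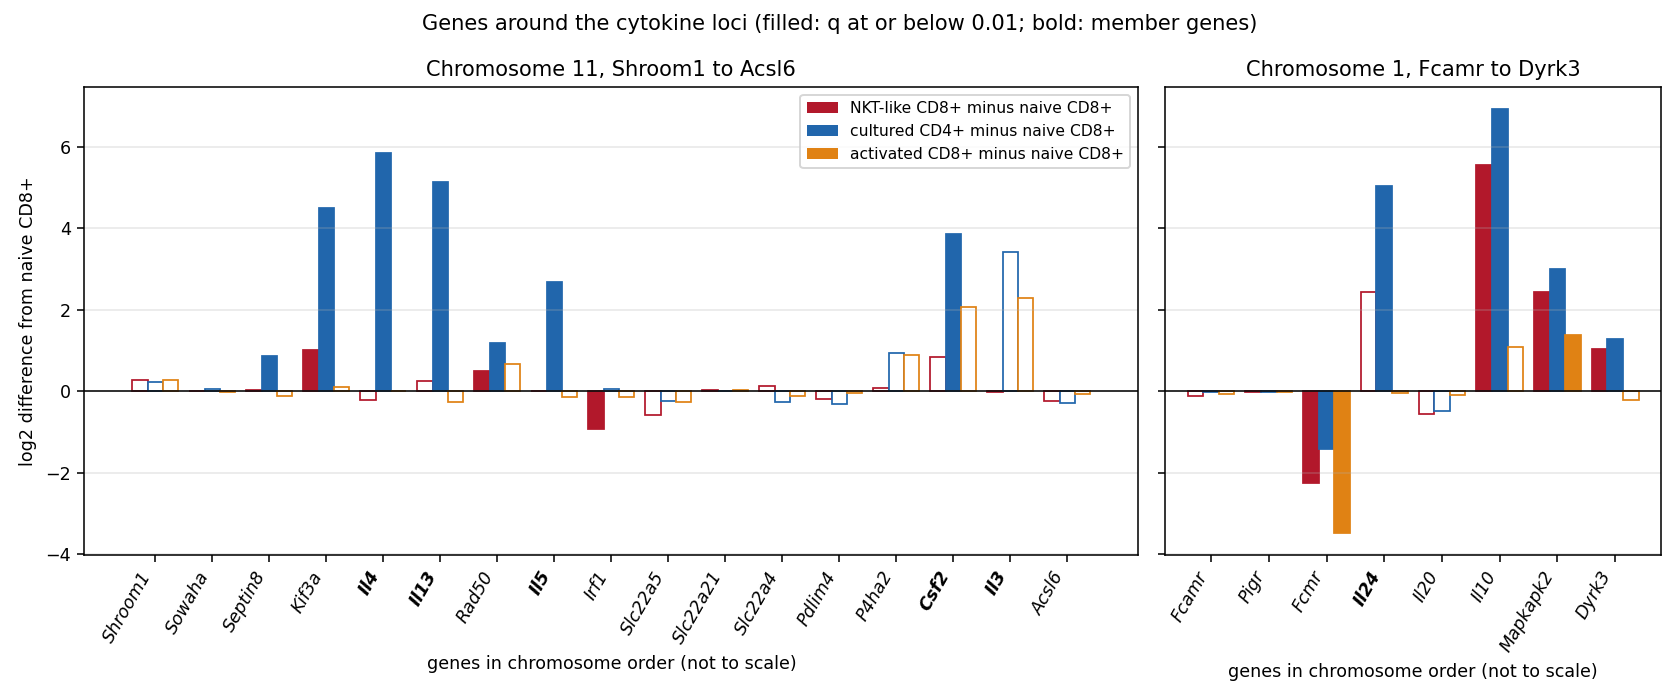
Log2 difference from naive CD8+ cells (y axis) of NKT-like, cultured CD4+ and activated cells for measured genes in chromosome order (x axis, not to scale) around Il4 to Il3 and around Il24; filled bars passed at q ≤ 0.01. In cultured CD4+ cells the filled bars run from Septin8 to Il5 and return at Csf2. Around Il24 both Il10 and Mapkapk2 were higher in both cultures, and Mapkapk2 also in activated cells.

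Near Il24, Il10, the suppressive cytokine gene, measured 8.86, 10.31, 12.33, 12.21 and 10.12 in NKT-like replicates 1 to 5, 11.69, 12.46 and 12.28 in cultured CD4+, 6.41 and 6.17 in activated and 5.20 and 5.21 in naive cells. Both cultures lay wholly above the other groups, and Il10 passed against naive cells in NKT-like (5.56, q = 0.00026) and in cultured CD4+ cells (6.94, q = 0.00012). Within the NKT-like group it was highest in replicates 3 and 4, as was Il24. Maf, which encodes a factor that activates Il4 and Il10, measured 8.56, 8.72, 11.27, 10.98 and 7.16 in NKT-like replicates 1 to 5, and was likewise highest in replicates 3 and 4. Gata3 was 7.83, 7.54, 9.0, 9.28 and 8.26 on the same arrays. Il4 also had its 2 highest NKT-like values in replicates 3 and 4, at 6.09 and 5.80, close to the 5.84 and 5.78 of naive cells. Over the 12 arrays Il24 had a Pearson r of 0.95 with Maf, 0.90 with Gata3 and 0.90 with Il10, a description over arrays of 4 groups, with these genes chosen after their values were seen. Mapkapk2, a stress kinase gene on the far side of Il10, was 3.00 log2 above naive in cultured CD4+ cells (q = 2.1e-05) and 2.44 in NKT-like cells (q = 4.4e-05). Unlike Il24 and Il10 it also passed in activated against naive cells (1.39, q = 0.0092). Il20 differed from naive by -0.47 in cultured CD4+ (q = 0.051) and -0.55 in NKT-like cells (q = 0.024).

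**Figure D4:**
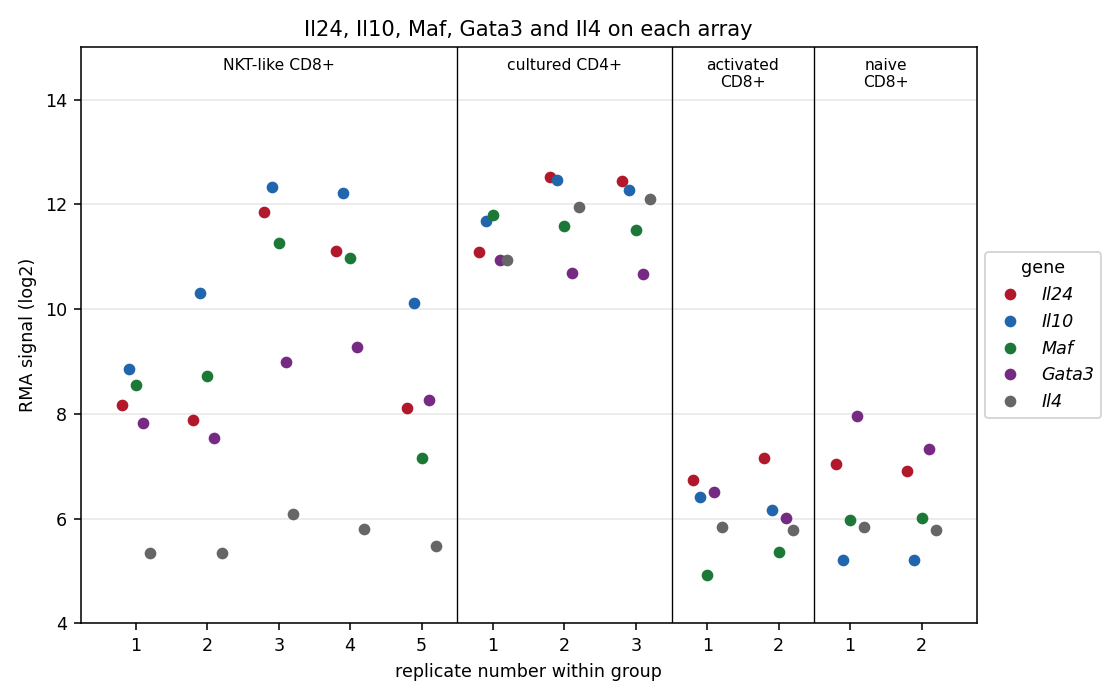
Log2 RMA signal (y axis) of Il24, Il10, Maf, Gata3 and Il4 on each array, by replicate number within group (x axis). In the NKT-like group all 5 genes are highest in replicates 3 and 4, Il24 at 11.86 and 11.11 and Il4 at 6.09 and 5.80.

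In cultured CD4+ against naive cells 8.18% of all probe sets were called higher and 7.31% lower. Among 19 measured genes listed as activators of any of these cytokine genes, 11 were higher there and 1, Spi1, lower. Their median was 1.42 log2 against -0.10 over all probe sets. Without naive replicate 2 the numbers were 7 and 0. Spi1 averaged 6.83 in NKT-like, 6.77 in cultured CD4+, 6.75 in activated and 7.59 in naive cells, and its part in these genes was not tested. The largest changes were those of Maf (5.63 ± 0.97, q = 0.00098; 0.015 without naive replicate 2), Irf4, the receptor-strength factor (4.63 ± 0.37, q = 8e-06), Nfil3, a leucine zipper factor needed for natural killer cell development (4.48, q = 0.00011), and Bhlhe40, a basic helix-loop-helix factor of cytokine-producing T cells (4.31 ± 0.33, q = 6.1e-06). Bhlhe40 averaged 11.59 in NKT-like, 11.15 in activated and 11.56 in cultured CD4+ cells, and Nfil3 9.97, 7.77 and 10.14. Irf4 averaged 9.23, 11.19 and 11.63 and Maf 9.34, 5.15 and 11.63 in the same order. In NKT-like against naive cells 7 of the 19 were higher and 1 lower, beside 7.83% and 8.52% of all probe sets. In activated against naive cells 5 were higher and 1 lower, beside 3.10% and 2.60%. Gata3, the defining Th2 factor, measured 10.94, 10.69 and 10.68 in cultured CD4+ cells, 6.50 and 6.01 in activated and 7.95 and 7.33 in naive cells. The cultured CD4+ arrays were above every other array, with a difference from naive cells of 3.13 ± 0.45 (q = 0.00034), and unlike the cytokines replicate 1 was not the lowest. In NKT-like against cultured CD4+ cells, where 1.33% of all probe sets were called lower and 0.850% higher, 6 of the 19 were lower and 0 higher. At an unadjusted p below 0.05 the numbers were 10 and 0, and the median was -0.61 log2 against 0.00. The number that passed as lower was 3 without NKT-like replicate 5, 2 without cultured CD4+ replicate 1 and 1 without replicate 2 or 3. Irf4 (-2.40 ± 0.29, q = 0.00069) passed in all of these; Gata3 (-2.39 ± 0.36, q = 0.0025) did not without any 1 cultured CD4+ sample (q = 0.011 to 0.016), nor Batf, an AP-1 partner of IRF4 (-1.69 ± 0.26, q = 0.0029), without cultured CD4+ replicate 2 or 3 (q = 0.019 to 0.020).

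Of 12 factors that oppose type 2 genes or drive the type 1 programme, 3 rose and 2 fell in cultured CD4+ against naive cells. Their median was 0.18 log2 against -0.10 over all probe sets, of which 8.18% were called higher and 7.31% lower. Eomes, the T-box factor of cytotoxic cells, measured 11.86, 11.46, 11.92, 11.74 and 11.41 in NKT-like, 6.56, 6.56 and 6.50 in cultured CD4+, 10.13 and 9.49 in activated and 10.39 and 9.82 in naive cells. The NKT-like arrays were the highest and the cultured CD4+ arrays the lowest, with no overlap, and NKT-like stood 5.14 ± 0.18 log2 above cultured CD4+ cells (q = 8.9e-08). The 2 lower factors were Eomes (-3.56 ± 0.23, q = 1.4e-06) and Sox4, an HMG-box factor that restrains Th2 differentiation (-1.10 ± 0.12, q = 8e-05). Sox4 measured 8.21, 8.17 and 8.04 in cultured CD4+ and 9.11 and 9.37 in naive cells. Its mean was also lower than in naive cells in NKT-like (7.89) and activated cells (8.01). The 3 higher factors were Riox2, a histone demethylase that represses Il4 (1.74, q = 0.0013), Tbx21, which encodes T-bet (1.71, q = 0.0052), and Hlx, a homeobox partner of T-bet (1.61, q = 0.0024). The number was 1 without cultured CD4+ replicate 2 and 0 without naive replicate 2, and Tbx21 missed the threshold without any 1 cultured CD4+ or naive sample (q = 0.010 to 0.069). In NKT-like against cultured CD4+ cells Eomes and Zbtb32, a repressor of T cell cytokine genes (2.35, q = 0.0048), were higher and 0 were lower. Of all probe sets 0.850% were called higher and 1.33% lower there. At an unadjusted p below 0.05, 3 factors were higher and 4 lower. Leaving out NKT-like replicate 1, NKT-like replicate 3 or a cultured CD4+ sample moved Zbtb32 above the threshold (q = 0.010 to 0.022).

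**Figure D5:**
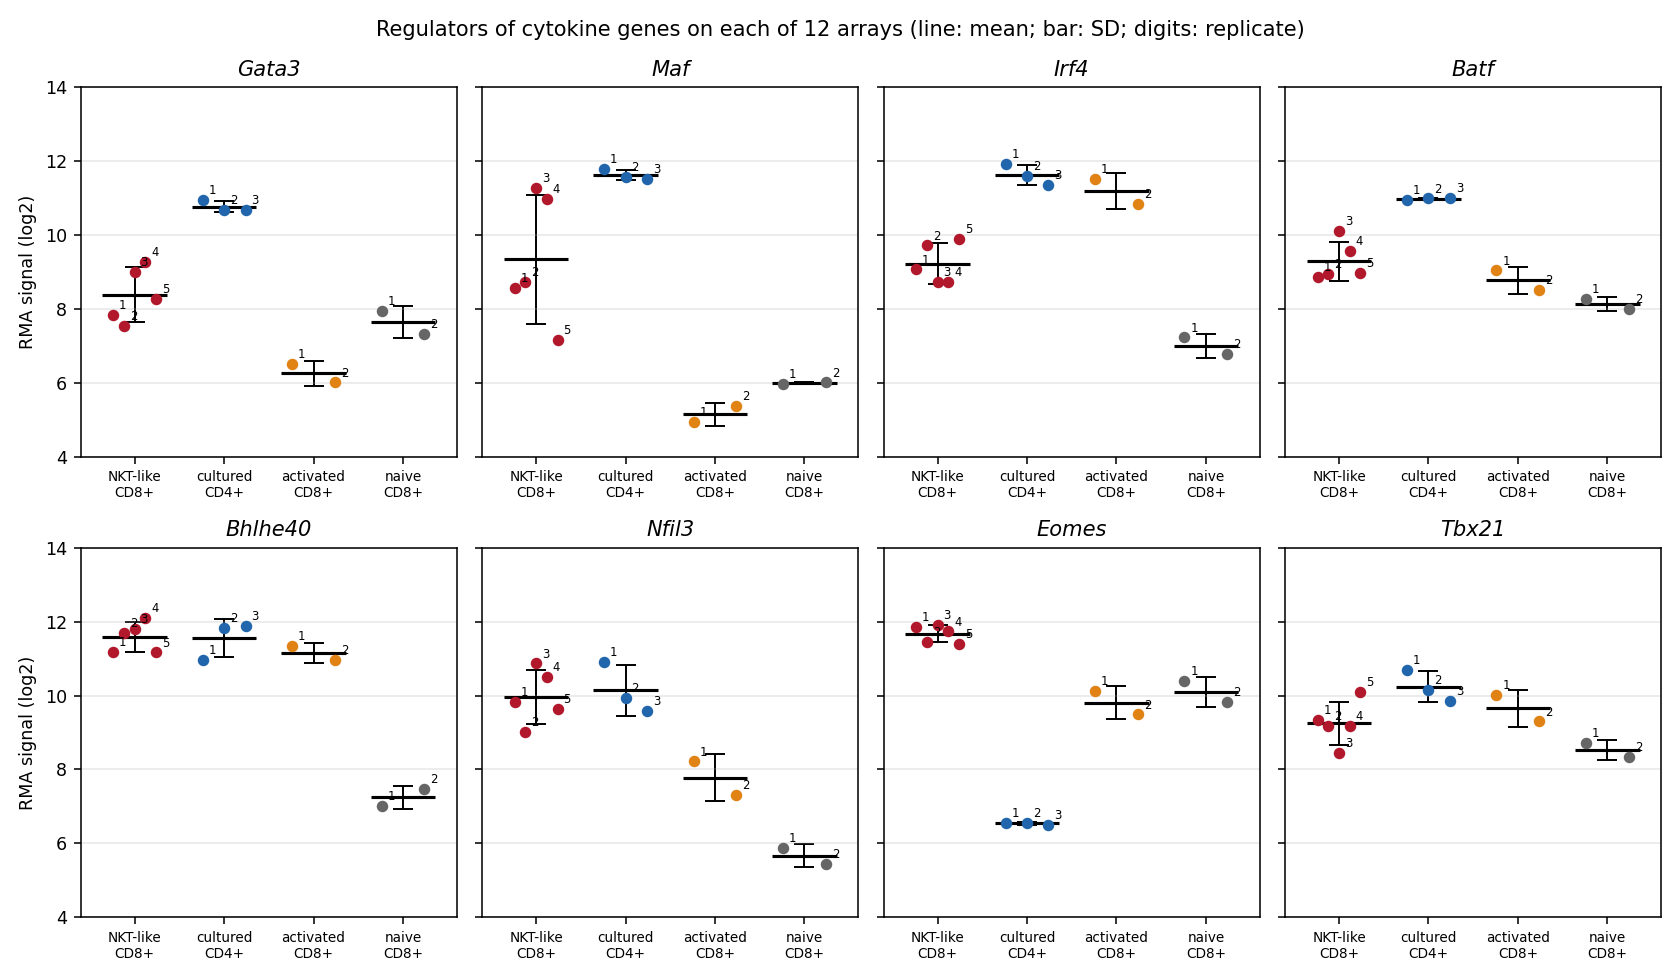
Log2 RMA signal (y axis) of 8 regulators of cytokine genes on each array, by group (x axis); points are arrays with their replicate number, lines are means and bars SD. Gata3 was above 10 on the 3 cultured CD4+ arrays alone, and Eomes was at 6.50 to 6.56 there and at 9.49 to 11.92 elsewhere.

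Of 12 measured receptor chains of the 7 cytokines, 1 was higher and 2 lower in cultured CD4+ cells, set against naive cells, with a median of -0.17 log2 beside -0.10 over all probe sets. The share called higher is near the 8.18% of all probe sets, of which 7.31% were called lower. Il4ra, the shared chain of the IL-4 and IL-13 receptors, measured 9.92, 9.69 and 9.68 in cultured CD4+ and 8.12 and 7.58 in naive cells (1.91 ± 0.50, q = 0.0084), a call that was lost without any 1 cultured CD4+ or naive sample or without NKT-like replicate 1, 4 or 5 (q = 0.012 to 0.099). Csf2rb, the beta chain shared by the receptors of IL-3, IL-5 and GM-CSF, gave -1.21 ± 0.17 (q = 0.00034), and its mouse paralogue Csf2rb2, which serves IL-3, -0.65 ± 0.16 (q = 0.0056; 0.016 to 0.041 without cultured CD4+ replicate 3 or either naive sample). Both stood at 4.69 to 5.29 in cultured CD4+ cells, in the lower part of the scale. The red cell and B cell genes named above were also lower in cultured CD4+ than naive samples (5 of 7 and 6 of 9 passed). In NKT-like against cultured CD4+ cells limma called 0 of the 12 in either direction, with 2 higher and 1 lower at an unadjusted p below 0.05.

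Other genes known from type 2 cells were examined as well. Of 13 measured, 7 were higher in cultured CD4+ cells and 0 lower, set against naive cells (7 and 2 at an unadjusted p below 0.05). Their median was 1.45 log2 against -0.10 over all probe sets, of which 8.18% were called higher and 7.31% lower. In NKT-like against cultured CD4+ cells 5 were lower and 0 higher (7 and 1 at an unadjusted p below 0.05). The median there was -1.13 against 0.00 over all probe sets, of which 1.33% were called lower and 0.850% higher. Il21, a helper cytokine of germinal centres, measured 4.80 to 5.11 in NKT-like, 10.88, 10.31 and 10.40 in cultured CD4+ and 5.44 and 5.46 in naive cells (5.08 ± 0.16 above naive, q = 8e-09). Ecm1, which promotes exit of Th2 cells from lymph nodes, measured 11.96, 9.81 and 9.62 in cultured CD4+ cells and 5.93 to 6.27 in naive cells (4.36 ± 0.60, q = 0.00026), highest on replicate 1. Ccr8, a chemokine receptor of Th2 and regulatory cells, measured 7.93, 8.66 and 8.81, against 5.99 and 5.58 in naive cells (2.68 ± 0.25, q = 2.1e-05). Il10 (6.94) and Pparg, a lipid-sensing nuclear receptor (3.33 ± 0.50, q = 0.00047), also passed against naive cells, and each also passed in NKT-like against naive cells. Among 10 other T cell cytokines, 6 rose and 0 fell in cultured CD4+ cells relative to naive ones (6 and 1 at an unadjusted p below 0.05), 3 and 0 without naive replicate 2. With all samples, 8.18% of all probe sets were called higher and 7.31% lower in that comparison. The lists overlap: Il10 and Il21 are on this list and among the 13 genes above, and Il10 is also among the locus neighbours. Il2, the growth factor of recent activation, was at 6.15, 5.93 and 6.13 in cultured CD4+ cells, 10.07 and 9.70 in activated and 5.90 and 6.08 in naive cells.

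For the 5 cytokines that passed in a comparison, the genes that followed them most closely over the 12 arrays were sought by Pearson r among the other genes, as a description without a test. For Il4 these were Ptgir, a prostacyclin receptor gene (r = 0.994), Ccr8 (0.994) and Efna5, an ephrin gene (0.992), and for Il13 Ptgir (0.991), Timd2, a ferritin receptor gene of the TIM family (0.989), and Pth (0.985), annotated as parathyroid hormone. Il5 was followed by Acaa1b (0.980), Pdpn, the gene of podoplanin (0.980), and Olr1 (0.977). Csf2 was followed by B9d1 (0.982), Capsl (0.977) and Ccn4 (0.956). Il24 was followed by Csf1, the macrophage growth factor gene (0.977), Gpr146 (0.959) and Dgat1, an enzyme gene of triglyceride synthesis (0.958). The mean log2 signal of Ptgir was 4.63 in NKT-like, 7.98 in cultured CD4+, 4.54 in activated and 4.50 in naive cells, and that of Csf1 8.61, 10.16, 7.48 and 7.51. Among the 7 themselves r was 0.98 for Il4 with Il13, 0.96 for Il5 with Il9 and 0.94 for Il3 with Csf2, and Il24 gave the lowest, 0.43 with Il3 and 0.60 with Il9 and with Csf2. The arrays come from 4 groups, and a gene high in 1 group only gives a high r with any other such gene.

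Markers of cells other than T cells that make these cytokines were measured beside them. Of 10 mast cell and basophil genes 0 were higher and 1, Gata2, was lower in cultured CD4+ cells set against naive ones (1 and 4 at an unadjusted p below 0.05), and their mean ran from 6.32 to 6.49 log2 in NKT-like, 6.07 to 6.31 in cultured CD4+, 6.04 to 6.40 in activated and 6.33 to 6.40 in naive samples. Of the defining markers Cpa3 was at 5.72 to 6.19 and Fcer1a at 4.41 to 4.60 in cultured CD4+ cells, and at 6.60 to 6.66 and 4.72 to 4.73 in naive cells. Mcpt8, a basophil protease gene, measured 7.79, 9.14, 7.06, 7.92 and 9.38 in NKT-like, 6.80, 8.20 and 8.65 in cultured CD4+ and 6.19 and 6.23 in naive cells, and did not pass in cultured CD4+ against naive cells (1.68 ± 0.66, q = 0.038). It passed without cultured CD4+ replicate 1 (2.22, q = 0.0093). In NKT-like against naive cells Mcpt8 gave 2.05 ± 0.60 (q = 0.013), which passed without NKT-like replicate 3 (q = 0.0057) or cultured CD4+ replicate 1 (q = 0.0075). The part of such cells in the cytokine values was not tested. Of 4 eosinophil genes Siglecf passed, at 6.48, 8.51 and 8.50 in cultured CD4+ cells and 4.73 and 4.66 in naive cells (3.14 ± 0.52, q = 0.00081; 0.014 without naive replicate 2), while Epx and Prg2, the granule protein genes, were at 5.20 to 5.24 and 5.22 to 5.51 in cultured CD4+ cells. Arg1, of the innate type 2 lymphocyte list, was at 5.64, 4.61 and 4.68, and the 4 genes of that list averaged 5.78 to 6.49 in cultured CD4+ and 6.31 in both naive samples. T cell genes averaged 11.25 to 11.34 log2 in cultured CD4+ and 10.30 to 11.05 in naive samples.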

How the data were processed

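Total RNA of 12 spleen T cell samples was hybridized to 1 array each. The authors normalized the arrays by RMA and deposited log2 values, 1 for each probe set. No RMA version was given in the sources used, nor whether 1 run covered all arrays. The table held 45101 probe sets, of which 64 were Affymetrix controls and the other 45037 were tested; 34945 had 1 gene symbol, 932 several and 9160 none in the platform annotation. A gene with several probe sets was represented by the one with the highest mean. One linear model of the 4 groups was fitted with limma 3.58.1 in R 4.3.3 (residual df 8, prior df 3.03), and 6 comparisons were tested, two-sided, with Storey q-values over all probe sets and a threshold of 0.01, as in the study's methods. The script was tested on simulated data. The number of arrays limits the precision, and a group left with 1 array was assumed to vary like the others. Alternatives were the 2 groups alone, Benjamini-Hochberg adjustment, a threshold of 0.05, array weights, a robust prior with a trend, a filter at the median value (6.30, 25425 probe sets), quantile normalization, median centring, a replicate block, leaving out each sample, and, chosen after seeing the data, cultured CD4+ replicates 2 and 3 as 1 sample. From each gene list, genes past the threshold with the largest change, up to 4 in each direction, and any that went against the rest were named; Lif, Ifng, Il2, Irf1, Il20 and the markers described singly were chosen after their values were seen. The 7 genes and the lists were chosen with earlier results of these data known.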

Additional observations from a re-analysis of the deposited data

How the results depend on the processing

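Over the alternatives, 115 recounts of the genes that passed stayed within 1.5 times the number reported, 11 rose above it and 6 fell below it. In NKT-like against naive cells the number was 1 in place of 0 with only those groups fitted (Csf2) and 1 at a threshold of 0.05 (Il24), and 0 to 1 with 1 sample left out. In cultured CD4+ against naive cells it was 3 in place of 5 with cultured CD4+ replicates 2 and 3 as 1 sample and 3 to 7 with 1 sample left out. In activated against naive cells it was 1 in place of 0 at a threshold of 0.05 (Csf2) and 0 to 2 with 1 sample left out. In NKT-like against cultured CD4+ cells it was 6 in place of 3 with array weights and 2 to 6 with 1 sample left out. In NKT-like against activated cells it was 2 in place of 0 with only those groups fitted (Csf2 and Il3) and 0 to 2 with 1 sample left out. In cultured CD4+ against activated cells it was 4 in place of 2 at a threshold of 0.05 and 2 to 6 with 1 sample left out. The highest numbers came without cultured CD4+ replicate 1, which leaves only replicates 2 and 3, the most alike pair of arrays, in that group. With the replicate block the numbers were 3 in cultured CD4+ against naive cells, 2 in NKT-like against cultured CD4+ cells and 2 in cultured CD4+ against activated cells, and Il13 in NKT-like against activated cells was -0.23 (q = 0.85) in place of 0.51. Same-numbered samples had correlations of deviations between -0.50 and 0.28, so the numbers were not taken to pair samples. Il4 and Il13 passed under every alternative in the 3 comparisons with cultured CD4+ cells. Where a value moved, the cause was not tested. Each of the 7 genes has 1 probe set, so the mean over probe sets gave no other value.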
